A study of Caenorhabditis elegans with 15 samples.

Results

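KIN17 is a conserved protein of the spliceosome, the machine that cuts introns out of pre-mRNA. An intron begins at a 5' splice site, usually the letters GT in the DNA, and ends at a 3' splice site, usually AG. The 5' site is first paired with U1 snRNA and is later handed to U6 snRNA, and KIN17 is present while that active site is being formed. In worms KIN17 is encoded by dxbp-1, and M107I exchanges a methionine for an isoleucine in its winged-helix domain. The splicing events compared here are those with a value in all 3 KIN17(M107I) libraries and all 3 smg-4 control libraries. They numbered 31463 of the 40212 events in the series, of which 16054 had alternative 5' sites, 13050 had alternative 3' sites and 2359 came from the annotated classes of whole exons and introns.

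Polyadenylated RNA of mixed-stage whole worms grown at 20 C was sequenced in 15 libraries of 5 strains. The control strain was smg-4(az152), and the KIN17(M107I) strain was unc-73(az63) dxbp-1(az52); smg-4(az152). Both alleles of the latter were made by CRISPR, az63 to mimic the cryptic-splicing allele unc-73(e936), which the control does not carry. For comparison, KIN17(K23N) was unc-73(e936az30)dxbp-1(az121); smg-4(az152), PRCC(I371F) was prcc-1(az122); smg-4(az152) and PRCC(null) was prcc-1(gk5556); smg-4(az152). All strains therefore carry smg-4(az152), a null allele that removes nonsense-mediated decay, so that transcripts with early stop codons are kept. Each strain is 1 line with 3 RNA isolations.

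The value of an event is PSI, the percentage of its transcripts in the included form. For 5' events PSI is the use of the downstream site, and for 3' events it is the use of the upstream site, which is the shorter intron in both cases. Read numbers are not part of the tables, and the precision of a single PSI is therefore unknown. The control libraries are numbered 1 to 3 and the KIN17(M107I) libraries 24 to 26, so strain and numbered set cannot be told apart in this comparison. Libraries scored 33415 to 33839 of the 5' and 3' events in the control and 33670 to 33946 in KIN17(M107I). Exact values of 0% or 100% made up 58.5% to 60.8% of these scores in the control and 52% to 55.6% in KIN17(M107I). Libraries of 1 strain differed by 3.78 to 4.08 percentage points on average at 5' events, and a control and a KIN17(M107I) library by 4.10 to 4.42. At 3' events these averages were 4.82 to 5.42 points within a strain and 5.07 to 5.91 points between them.

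Sequences from the study's event list show the kind of choice that moved. They are printed 5' to 3' along the transcript, and the capitals mark the first letters of the intron at the downstream 5' site or the last letters of the intron at each 3' site. The ce10 positions of the events are chrV:9176513-9176746 (spas-1), chrV:2023367-2023756 (F59A7.5), chrIV:3034911-3035095 (eel-1, minus strand), chrIII:9819793-9820145 (panl-3), chrIII:10467088-10467281 (atx-2), chrIV:8983767-8984006 (pdzd-8), chrII:8227360-8227575 (dab-1) and chrII:11298085-11298265 (saps-1).
spas-1: gtGTttagtttggtt
F59A7.5: gtGTtcgaattgaaatt
eel-1: ttgaaaAGtaattccAG
panl-3: ccaaaaAGttccAG
atx-2: ttatgaAGctttgaAG
pdzd-8: tctaaaAGtctccAG
dab-1: tataaaAGttccAG
saps-1: gtataaAGtttcAG
In spas-1 and F59A7.5 the GT that begins the intron in the control is followed at once by another GT, and KIN17(M107I) used the second more. In the other introns the first AG, which is the upstream 3' site, was used more in KIN17(M107I). Letters could be read for 22 of the 23 3' events found for this strain in the study's event list as used here. The upstream site ended in AAG in 13 of these and in CAG in 4, while the downstream site ended in CAG in 17 and in AAG in 3. The letter before the AG was C or T at 6 of the upstream sites and at 19 of the downstream ones. No genome of the build was used here, so the share of all pairs with these letters is not given.

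The first comparison asks which 5' sites differed in use between the KIN17(M107I) strain and the control. Downstream sites of closely spaced pairs were used more, mostly by a few percentage points, and a smaller number of events moved by more than 20. By limma over all 15 libraries, 101 of the 5' events tested had an adjusted p under 0.05 at any size of change, which is 0.629%. Use of the downstream site rose in 76 of them (0.473%) and fell in 25 (0.156%), while 58.0% of all tested events with a difference had the downstream site higher. Pairs of sites 1 or 2 nt apart made up 52.5% of the 101 events and 28.9% of the events tested. Of the pairs 1 or 2 nt apart, 46 rose and 7 fell. By single distance, 0.815% of pairs 1 nt apart, 2.22% of pairs 2 nt apart and 0.824% of pairs 3 nt apart were among the 101.

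All 46 rising pairs started from a downstream site that the control hardly used, at 4.24% or less, and 24 of them were at 0 in all control libraries. The downstream site was above 0 in every KIN17(M107I) library at all of them. Over these 46 events the medians of the KIN17(M107I) libraries were 8.15%, 7.14% and 6.45%, and the median of each control library was 0. The median difference was 6.92 points, 33 pairs moved by less than 10 points, and no library of one strain overlapped the other. Over all 5' events, 7.85% had libraries that did not overlap, 5.26% with more downstream use in KIN17(M107I). The 46 were chosen on these same values, so their lack of overlap is a description and no test.

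The counts by distance and by control level are given as a description, since the difference between these classes was not tested. For sites 2 nt apart with the downstream site at 0 to 5% in the control, 24 of 355 pairs rose (6.76%). For sites 1 nt apart at the same control level, 22 of 1955 rose (1.13%). For sites 3 nt apart it was 5 of 539 (0.928%), and for sites 4 nt apart 9 of 3432 (0.262%). Where the control used the downstream site at 95% or more, 7 of 1419 pairs 1 nt apart fell (0.493%) and 0 of 605 pairs 2 nt apart did. Of pairs 3 nt apart, 3 of 329 fell (0.912%, limma, same adjusted p, with the whole 5' table tested). In all 53 pairs 1 or 2 nt apart the change was thus away from the site that the control used. That is the only way open to a value near 0% or 100%. The rising pairs had long introns, with a median of 354 nt against 70 nt for all pairs tested 1 or 2 nt apart that the control used at 0 to 5%, and the 7 falling ones had a median of 48 nt. Exact zeros were also fewer in the KIN17(M107I) libraries over all events, as given above, and their part in this count was not tested. When only the 6 libraries were fitted, 12 pairs rose and 8 fell, so that the lead of the downstream site was mostly lost, and with an offset of 0.05 21 rose and 3 fell, both tried after the data were seen. Without 1 library it was 33 (KIN17(M107I) replicate 1), 22 (replicate 2), 30 (replicate 3), 28 (control replicate 1), 26 (control replicate 2) and 23 (control replicate 3).

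**Figure D1:**
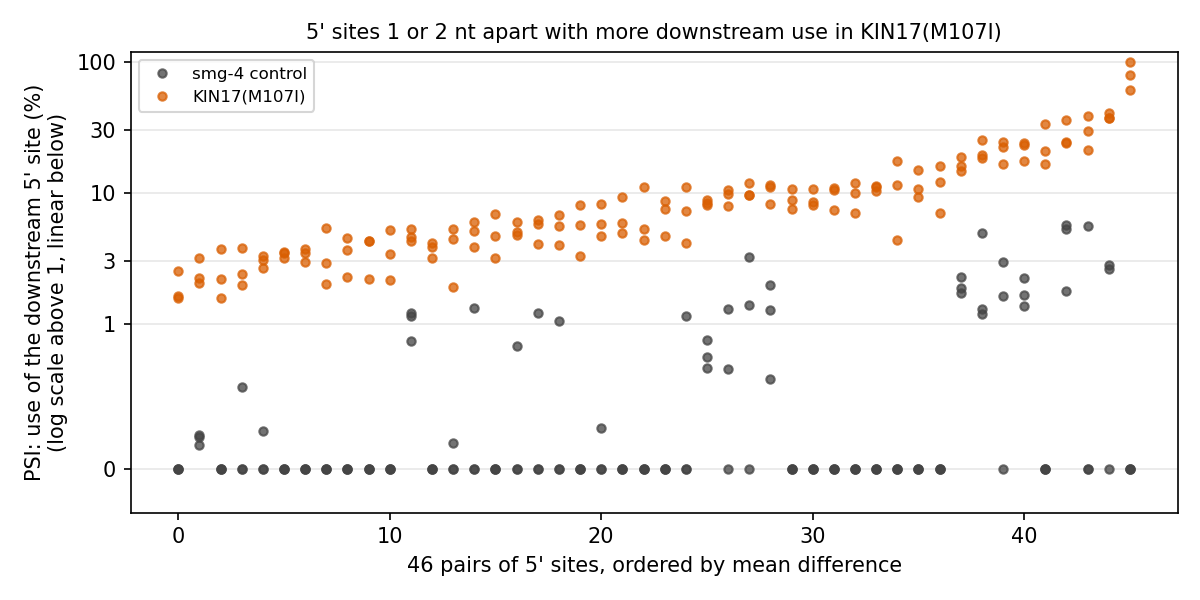
Use of the downstream 5' site (y axis, percent, log scale above 1 and linear below) at the 46 pairs of sites 1 or 2 nt apart with more downstream use in KIN17(M107I), ordered by mean difference along the x axis. Each point is 1 library, with 3 control and 3 KIN17(M107I) libraries per pair, and every KIN17(M107I) point lies above the control points of its pair.

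Gene names exist only for events at or between positions that the study listed for one of its mutant strains, so named genes are not a random draw of the events. T21H3.9, on chromosome V from 17655665 to 17655863 (ce10), has 5' sites 1 nt apart, and its downstream site was used at 1.35%, 1.66% and 2.22% in the control and at 23%, 24% and 17.5% in KIN17(M107I). M60.6, on chromosome X from 8250261 to 8250684, has sites 2 nt apart and went from 0%, 1.61% and 2.97% to 24.3%, 22.4% and 16.7%. In both genes every KIN17(M107I) library was far above every control library. Their mean differences of 19.7 and 19.6 points (limma adjusted p = 0.00143 and 0.00539) lay just under the 20-point limit used for larger changes. With only the 6 libraries the limma adjusted p was 0.0638 for T21H3.9 and 0.2 for M60.6.

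Among the smaller shifts were genes with well-known roles, chosen here after their values were seen. In cpsf-1, a subunit of the factor that cleaves mRNA before polyadenylation, the downstream site 2 nt away went from 0 in all control libraries to 4.65%, 7.55% and 8.57% (limma adjusted p = 0.00467). In mrt-2, a DNA damage checkpoint gene, the site 1 nt away went from 0 in all control libraries to 9.20%, 10.7% and 14.9% (limma adjusted p = 0.00196). Each shift was small beside the use of the main site but larger than the spread between libraries. The smallest named shift was in lev-11, the muscle tropomyosin gene, from 0.221%, 0.233% and 0.167% to 2.04%, 3.19% and 2.22% (limma adjusted p = 0.0272). Pairs that fell included cbs-1, named for a cystathionine beta-synthase, where the downstream site 1 nt away was at 100% in all control libraries and at 92.7%, 93.9% and 92.4% in KIN17(M107I) (limma adjusted p = 0.00286).

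Larger 5' changes were few. With a mean difference over 20 points in addition to an adjusted p under 0.05, limma called 22 events, or 0.137% of those tested, of which 17 moved downstream (0.106%) and 5 upstream (0.0311%). This split did not hold in every fit: it was 9 downstream and 15 upstream with only the 6 libraries, 8 and 14 without control replicate 2, and 15 and 13 without control replicate 3. The numeric criterion of the study asks that all 9 pairwise differences exceed 15 points in one direction and that their mean exceed 20. The study also examined each event by eye in a genome browser, which was not done here, so the counts below are of candidates and not of its final list. The criterion was passed by 84 events (0.523%), 44 downstream (0.274%) and 40 upstream (0.249%), and 21 of the 22 called events passed it too.

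spas-1 encodes the worm spastin, which severs microtubules. Its 5' sites on chromosome V, at 9176580 and 9176582 as first bases of the intron, lie within the event from 9176513 to 9176746 on the plus strand. Its downstream site was at 0 in all control libraries and at 33.3%, 21% and 16.5% in KIN17(M107I), a difference of 23.6 points (limma adjusted p = 0.000496). Without KIN17(M107I) replicate 1 the difference was 18.7 points. F59A7.5, on chromosome V from 2023367 to 2023756, went from 5.62%, 1.77% and 5.32% to 35.8%, 23.8% and 24.6% (difference 23.8 points, limma adjusted p = 0.0130). The libraries of the strains did not overlap in either gene, but those of KIN17(M107I) were spread, with replicate 1 the highest in both. For F59A7.5 the adjusted p was 0.060 without KIN17(M107I) replicate 1 and 0.051 without control replicate 2. With only the 6 libraries it was 0.203 for F59A7.5 and 0.0517 for spas-1 (limma).

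cec-10, which encodes a chromodomain protein, has 5' sites 2 nt apart and gave even values. On chromosome I from 4374370 to 4376509 its downstream site went from 2.82%, 0% and 2.63% in the control to 37%, 37.4% and 40.6%, a difference of 36.5 points (limma adjusted p = 0.00150). dnj-20, a DnaJ-type chaperone gene on chromosome II, held 2 events that end at the same 3' site and share the downstream 5' site. For the sites 21 nt apart the control was at 16.7%, 20% and 25% and KIN17(M107I) at 81.1%, 83.3% and 81.5% (difference 61.4 points, limma adjusted p = 0.00199). For the sites 1 nt apart it went from 1.27%, 0.621% and 1.99% to 11.4%, 11% and 8.15% (limma adjusted p = 0.00776). Use of the shared downstream site was higher in every KIN17(M107I) library against both alternatives. The 21-nt event of dnj-20 kept its call with only the 6 libraries and with any 1 library left out. It also kept the call with an offset of 0.05 and with p adjusted over all classes. cec-10 kept its call in all of these fits but that of the 6 libraries alone (limma adjusted p = 0.12).

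**Figure D2:**
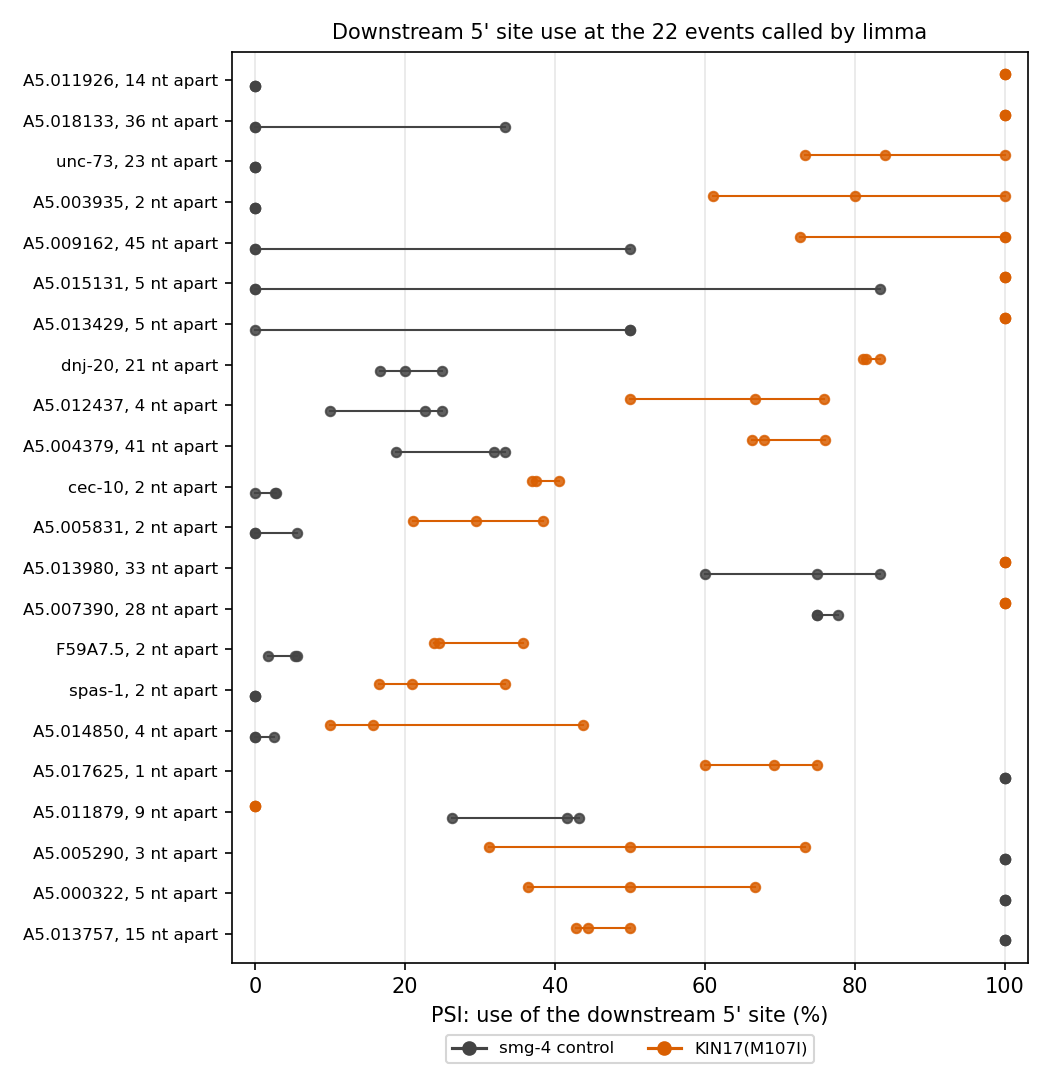
Use of the downstream 5' site (x axis, percent) at the 22 events called by limma, one row per event with the distance between its sites. Points are single libraries and lines their range in the smg-4 control and in KIN17(M107I), and the 5 lowest rows are the events that moved upstream.

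The remaining called 5' events lie at positions with no gene name here. Where a library of another strain had no score, the fit left it out, which left 14 libraries for A5.011926 and A5.013757, and 10 for A5.018133 and A5.003935. At A5.011926 on chromosome IV from 5848876 to 5849373, with sites 14 nt apart, every control library was at 0 and every KIN17(M107I) library at 100% (limma adjusted p = 3.11e-09). All scored libraries of the other mutants were also at 100%, so the control alone stood apart. A5.013757 (chromosome IV, 12124094 to 12124288), A5.000322 (chromosome I, 1823512 to 1823693) and A5.005290 (chromosome II, 7662804 to 7662986) were at 100% in all control libraries. In KIN17(M107I) the first was at 44.4%, 50% and 42.9%, the second at 50%, 36.4% and 66.7% and the third at 73.3%, 50% and 31.2%. No library of either strain overlapped the other. Downstream use fell by 54.2, 49 and 48.5 points, at pairs 15, 5 and 3 nt apart (limma adjusted p = 0.000496, 0.00143 and 0.000496). A5.018133, A5.003935, A5.009162, A5.015131 and A5.013429 had mean differences of 66.7 to 88.9 points, and their libraries scattered. In A5.015131 the control was at 0%, 0% and 83.3%, and each of the 5 had an adjusted p over 0.05 without at least 1 of the libraries. The downstream site also rose at A5.012437, A5.004379, A5.005831, A5.013980 and A5.007390, by 24.1 to 44.9 points (limma adjusted p = 0.00278 to 0.0464). Of these, A5.004379 and A5.007390 lost the call in all 6 fits that left out 1 library, A5.012437 in 5 of them and A5.005831 in 4. Downstream use fell at A5.017625, a pair 1 nt apart, from 100% in all control libraries to 75%, 69.2% and 60% (limma adjusted p = 0.00464). A5.008213 passed the criterion without a call, at 92.9%, 100% and 100% in the control and at 30%, 0% and 0% in KIN17(M107I) (limma adjusted p = 0.113).

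unc-73 is needed for axon guidance, and the e936 allele that az63 mimics changes the first base of an intron, so that cryptic sites are used, one of them 23 nt downstream. The event with sites 23 nt apart on the minus strand of chromosome I, from 4021687 to 4022022, was at 0 in all control libraries and at 73.3%, 100% and 84% in KIN17(M107I). It was also at 0 in the 9 libraries of the other strains. It was taken as the unc-73 event from its distance and its difference from KIN17(K23N). No annotation of the build was used, so its values are a description. The base that the paper gives for e936 lies next to the upstream site of the event. The paper also states that e936 with unchanged KIN17 is spliced mostly at the downstream cryptic site. Use of this site in KIN17(M107I) is therefore no measure of the change in KIN17. A further effect of that change on the event was not tested, since no library carries az63 with unchanged KIN17.

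At 3' sites most of the events that moved used the upstream site more, often at sites 6 or 9 nt apart. The criterion on the 9 pairwise differences was passed by 72 events (0.552%), 56 with more use of the upstream site (0.429%) and 16 with more use of the downstream one (0.123%). limma called 10 events, or 0.0766%, 8 of them upstream (0.0613%) and 2 downstream (0.0153%). Without the limit on size 17 events (0.13%) had an adjusted p under 0.05, 15 of them upstream (0.115%) and 2 downstream (0.0153%). This lead of the upstream site was lost without KIN17(M107I) replicate 2, when limma called 3 events upstream and 4 downstream.

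Of the 56 upstream events, 19 had sites 6 nt apart and 11 had sites 9 nt apart. These distances made up 53.6% of the 56 events and 15.8% of the 13050 tested. Among pairs 6 nt apart 1.94% passed the criterion in either direction and among pairs 9 nt apart 1.51%, beside 0.552% of all tested. At 7 or 8 nt it was 0.501%, at 5 nt 0.490%, at 1 nt 0.386% and at 4 nt 0 of 738 pairs. The distance was a multiple of 3, which keeps the reading frame in coding exons, in 67.9% of the 56 and in 34.3% of all tested. Pairs 3 nt apart keep the frame as well, but only 1 of 805 passed the criterion in either direction (0.124%). The 16 events that moved downstream also had 56.2% at multiples of 3 and 37.5% at 6 or 9 nt. The upstream events also started from a mixed choice, with a median PSI of 27.6% in the control and 61.6% in KIN17(M107I).

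**Figure D3:**
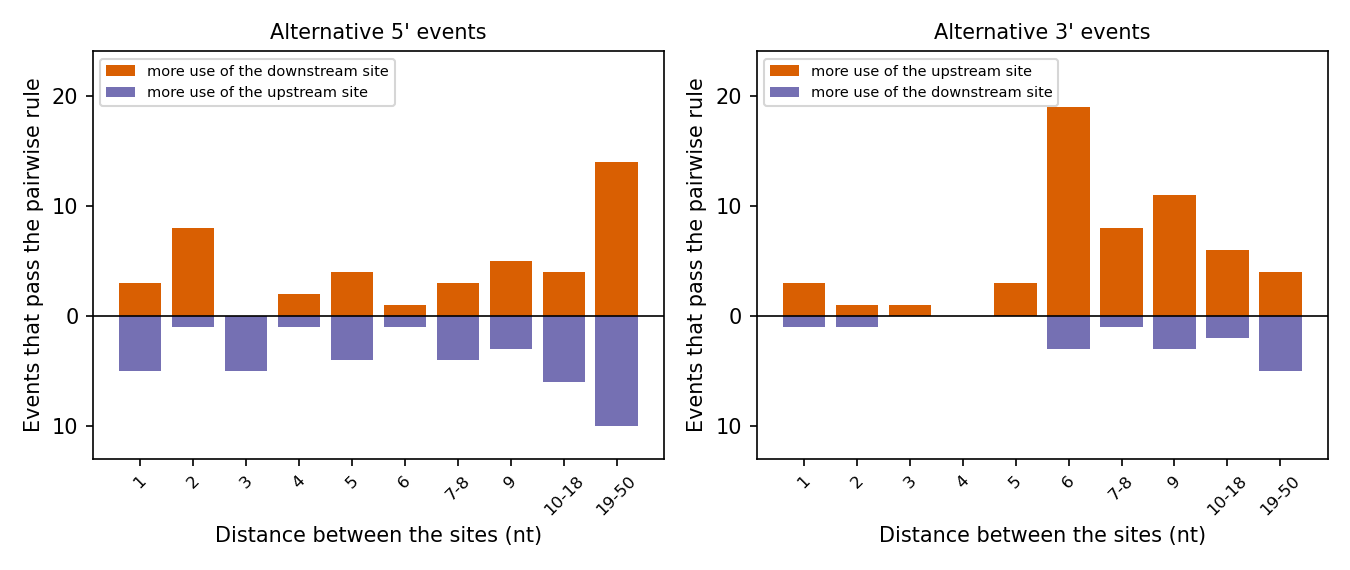
Events that passed the criterion on the 9 pairwise differences (y axis, number of events) by distance between the sites (x axis, nt), for 5' events on the left and 3' events on the right. Bars above 0 count events with more use of the downstream 5' or upstream 3' site and bars below 0 the opposite: 5' events fall on both sides, while 3' events stand mostly above 0 with 19 at 6 nt.

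Of the 56 events, 23 in 18 genes stand in the study's event list for this strain as used here. The list was chosen on these libraries, so its direction is not independent evidence. Upstream use was higher in every KIN17(M107I) library than in every control library at each of the 23, which the criterion itself requires. Over all tested 3' events 9% had libraries that did not overlap, 6.44% with more upstream use. Those shares are therefore no test of the 23. The mean differences ran from 20.5 to 35.6 points. limma called 5 of the 23, with adjusted p from 0.0278 to 0.214 over the list.

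eel-1 encodes a HECT-type ubiquitin ligase. On chromosome IV from 3034911 to 3035095 its upstream site, 9 nt before the other, was used at 19.6%, 13.3% and 25% in the control and at 51.7%, 59.8% and 48.5% in KIN17(M107I) (difference 34.0 points, limma adjusted p = 0.0338). wwp-1, another HECT-type ligase, went from 12.6%, 8.78% and 13.9% to 33.3%, 38% and 31.3% (difference 22.4 points, limma adjusted p = 0.0278). Neither ligase event had an overlap between the strains, as the criterion requires. sop-3 encodes a subunit of the Mediator complex, which links transcription factors to RNA polymerase II, and its event went from 42.7%, 42% and 34.8% to 78.4%, 72.7% and 69.4% (difference 33.6 points, limma adjusted p = 0.0395). atx-2, the worm ataxin-2, went from 26.6%, 22.2% and 29.9% to 53.5%, 60.4% and 57.2% (difference 30.8 points, limma adjusted p = 0.0411). wdr-20, which encodes a WD-repeat protein, went from 52.2%, 42.8% and 49.1% to 70.9%, 69.5% and 72.9% (difference 23.1 points, limma adjusted p = 0.0411). None of these 3 genes had an overlap either, as the criterion requires. With only the 6 libraries fitted all 5 lost the call, with limma adjusted p of 0.0848 for wwp-1, 0.0761 for sop-3, 0.0565 for atx-2, 0.152 for eel-1 and 0.0818 for wdr-20.

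The other listed events had like differences and missed the threshold. panl-3, which encodes a subunit of a deadenylase that shortens poly(A) tails, was at 40.5%, 28.2% and 32.7% in the control and at 72.9%, 67.5% and 62.4% in KIN17(M107I) on chromosome III from 9819793 to 9820145 (limma adjusted p = 0.0660). let-363, the worm TOR kinase, had 2 events, and the one with sites 12 nt apart was at 26.3%, 6.67% and 25.9% and then at 53.4%, 46.2% and 48.5% (limma adjusted p = 0.186). F52G3.1 was at 10.8%, 10.2% and 9.09% and then at 33.1%, 31.6% and 33.3% (limma adjusted p = 0.214). The libraries of F52G3.1 lay close together within both strains, while those of PRCC(I371F), which share the estimate of the spread, were at 38.3%, 23% and 8.16%. With only the 6 libraries fitted its limma adjusted p was 0.006. pdzd-8 had 3 listed events and F56C9.10 and dab-1 had 2 each, all with more upstream use and limma adjusted p of 0.0545 to 0.123. The differences of wnk-1, pac-1, ntl-4, wip-1, saps-1, usp-5 and F26F2.7 lay between 20.5 and 29.6 points, with limma adjusted p of 0.0764 to 0.161. usp-5, a ubiquitin-specific protease gene, also had one of the 5' pairs above, which went from 4.90%, 1.19% and 1.30% to 18.6%, 25.2% and 19.5% (limma adjusted p = 0.0130).

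**Figure D4:**
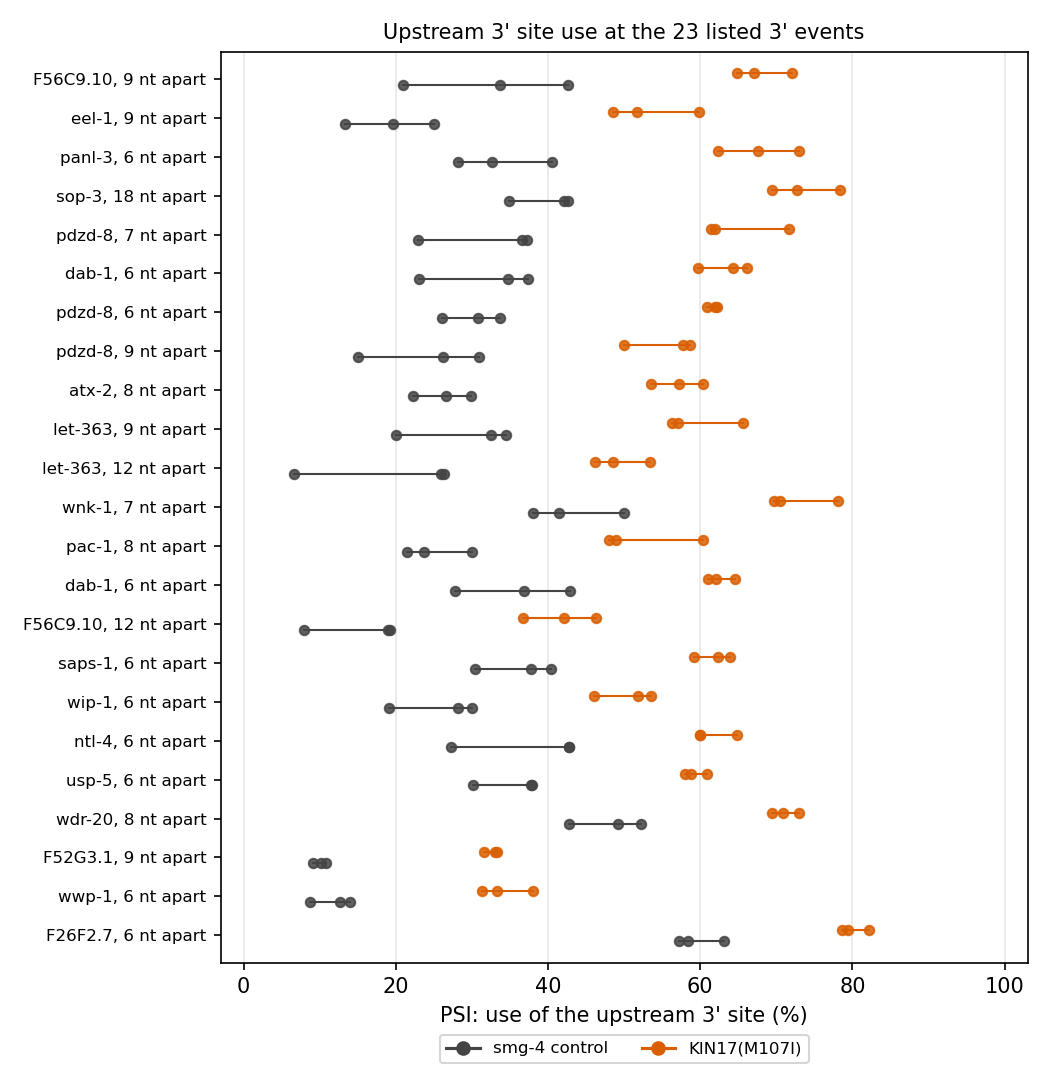
Use of the upstream 3' site (x axis, percent) at the 23 events listed by the study for KIN17(M107I), one row per event with the distance between its sites, ordered by mean difference. Points are single libraries and lines their range. In every row the KIN17(M107I) libraries lie to the right of the control libraries, as the criterion requires.

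Control replicate 2 stood below the other control libraries at these events. It was the lowest of the 3 at 19 of the 23, and the medians over the 23 events were 37.3%, 23% and 33.7% in the control libraries. It was also the lowest control library at 658 of 1234 other pairs 6 to 9 nt apart with a control PSI between 10% and 90%. In the KIN17(M107I) libraries they were 62.1%, 60.8% and 59.7%. Without control replicate 2 the differences were still 18.8 to 34.7 points, and limma called 0 of the 23, with adjusted p from 0.0678 to 0.399. Leaving out control replicate 1 or any KIN17(M107I) library also left 0 called, and leaving out control replicate 3 left 2. At an unadjusted p under 0.05, which 7.69% of all 3' events reached, all 23 passed in the limma fit with all libraries. They were chosen for large differences in these same libraries, so no support is drawn from this count. In RNA of whole mixed-stage worms, more or fewer cells of a stage or tissue that prefers one site, more or less RNA per cell, and another choice within the same cells cannot be told apart.

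The largest 3' calls were outside the list and have no gene name here. A3.000687, on chromosome I from 4631785 to 4632663 with sites 9 nt apart, was at 0 in all control libraries and at 58.5%, 54% and 56.9% in KIN17(M107I) (limma adjusted p = 1.54e-06, 14 libraries with a score). A3.009201, on chromosome IV from 1929251 to 1929438 with sites 6 nt apart, was at 0 in all control libraries and at 44.1%, 60.5% and 43.6% (limma adjusted p = 0.00269). A3.012667, on chromosome V from 6395161 to 6403938, moved the other way, from 50% in each control library to 0 in each KIN17(M107I) library (limma adjusted p = 5.70e-10). In A3.000687 and A3.009201 all libraries of the strains were far apart, and these 3 calls held in every fit tried. At A3.012667 neither strain had any spread, and the depth behind such equal values is unknown.

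Annotated events of whole exons and introns changed in both directions. limma called 20 of 2359 (0.848%), 10 with more and 10 with less inclusion (0.424% each), and 18 passed the criterion on pairwise differences (0.763%), 8 with more (0.339%) and 10 with less (0.424%). Without the limit on size 78 had an adjusted p under 0.05, or 3.31%, with 44 higher (1.87%) and 34 lower (1.44%). The calls were 9 skipped exons, 4 alternative first exons, 3 multiple skipped exons, 2 alternative last exons, 1 pair of mutually exclusive exons and 1 retained intron. They rested on the shared fit: limma called 1 event with only the 6 libraries, 7 with p adjusted over all classes, and 2, 4, 4, 19, 3 and 12 without KIN17(M107I) replicates 1, 2 and 3 and control replicates 1, 2 and 3.

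In wnk-1, the kinase that regulates salt balance, the skipped exon SE.0000499 on chromosome IV from 9208069 to 9210400 was included at 52.7%, 68.4% and 59.6% in the control and at 87.9%, 87.7% and 86.1% in KIN17(M107I) (difference 27 points, limma adjusted p = 0.0338). It lost the call in all 6 fits that left out 1 library, and with only the 6 libraries its limma adjusted p was 0.315. The pdzd-8 last exon AL.0000087 carried the same values in all libraries as the 3' event of that gene with sites 7 nt apart, so it is the same choice counted in both tables. It was at 37.3%, 23% and 36.6% and then at 71.7%, 61.4% and 62% (limma adjusted p = 0.0288), and AL.0000122 is its mirror image. These 3 entries are 1 splicing choice.

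Exons that were left out more often had no gene name. MS.0000066, a run of exons on chromosome III from 9351157 to 9353540, was at 100% in all control libraries and at 35.1%, 53.8% and 57.1% in KIN17(M107I) (limma adjusted p = 0.000242, 14 libraries with a score). SE.0000263, on chromosome IV from 10676683 to 10678046, went from 89.5%, 73.5% and 79.4% to 41.9%, 41.4% and 30.9% (limma adjusted p = 0.0227). SE.0000344, on chromosome II from 11594366 to 11595342, went from 35.8%, 43.7% and 40% to 11.6%, 12.7% and 16.1% (limma adjusted p = 0.0173). The libraries of the strains were apart in all 3, as the criterion on pairwise differences requires. Other events that passed both tests had differences between 24.1 and 31.7 points in size. Inclusion rose at SE.0000363 and MS.0000099 and fell at MS.0000157, SE.0000450 and SE.0000125. MX.0000034, SE.0000060 and SE.0000301, which passed both as well, and SE.0000589, which passed limma alone, had 20.7 to 23.5 points in size (limma adjusted p = 0.0264 to 0.0423). Their directions were mixed.

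Against KIN17(K23N), the other allele of the same gene, few events differed. limma called 3 of 15530 5' events (0.0193%) and 0 of 12574 3' events (0%). An unadjusted p under 0.05 was reached by 813 (5.24%) and 849 (6.75%) of them, and an adjusted p under 0.05 at any size by 8 (0.0515%) and 1 (0.00795%). With only the 6 libraries of these strains limma called 10 and 11. The 3 events were that of unc-73, A5.011879 and A5.014850. The paper states that e936az30, the unc-73 allele of KIN17(K23N), eliminates use of the site 23 nt downstream. The unc-73 event is therefore no comparison of the 2 changes in KIN17. A5.011879, on chromosome IV from 5397251 to 5397493 with sites 9 nt apart, was at 41.7%, 26.3% and 43.2% in the control, at 0 in all KIN17(M107I) libraries and at 28.6%, 35% and 35% in KIN17(K23N). The loss of its downstream site was shared with PRCC(I371F), at 0 in all libraries, and not with PRCC(null), at 45.5% and 69.2% in its 2 libraries with a score, so that this fit rests on 14 libraries. A5.014850 was at 43.8%, 15.8% and 10% in KIN17(M107I) and at 0 in all KIN17(K23N) libraries, and it failed the criterion on pairwise differences because replicates 2 and 3 lay less than 15 points above the highest control library.

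The listed 3' events lay lower in KIN17(M107I) than in KIN17(K23N), though no single one passed the test. The differences of KIN17(M107I) from KIN17(K23N) ran from -15.7 to 2.36 points with a median of -5.53, and 0 of the 23 had an adjusted p under 0.05 by limma. All strains share the control libraries, so their differences from it are given side by side only. The median difference from the control over the 23 events was 29.6 points in KIN17(M107I), 36.5 in KIN17(K23N), 16.1 in PRCC(I371F) and 27 in PRCC(null). These events were listed for their rise in KIN17(M107I), which raises its median beside the others, so no order of the strains is read from these medians. The 46 rising 5' pairs were chosen for their rise in KIN17(M107I), which raises its values beside those of the other strains, and no order of the strains is read from them. The median was 6.92 points in KIN17(M107I), 6.38 in KIN17(K23N), 20.8 in PRCC(I371F) and 27.5 in PRCC(null), over the 45 or 46 pairs with a score. Between the KIN17 strains these pairs differed by -14.8 to 10.5 points, with 0 of 45 past the threshold of limma.

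**Figure D5:**
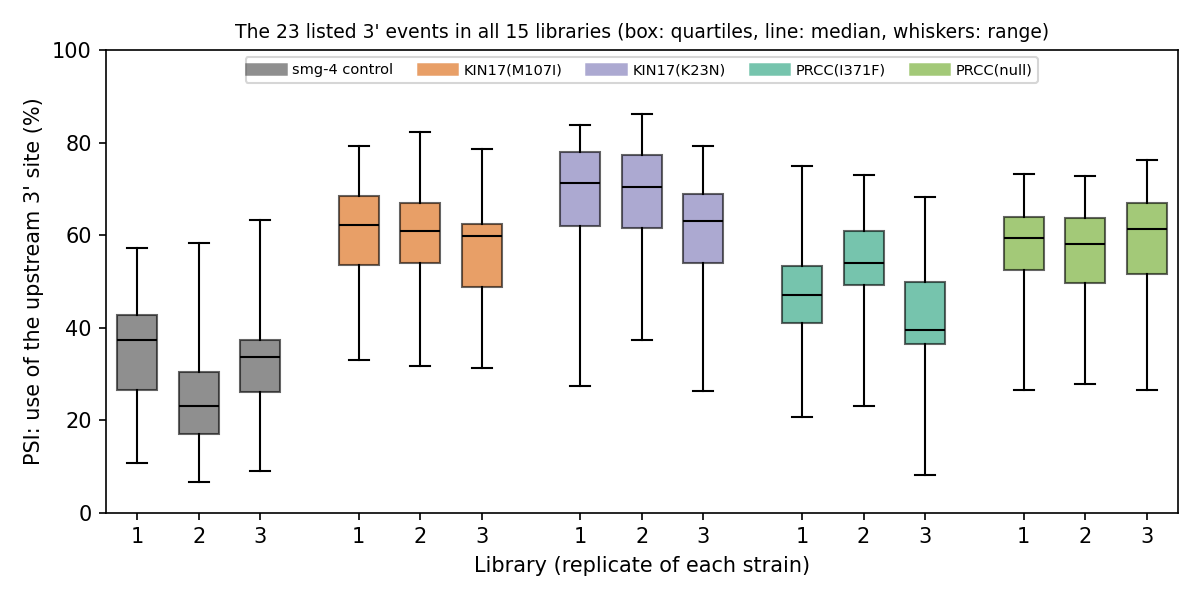
Use of the upstream 3' site (y axis, percent) over the 23 listed events in each of the 15 libraries (x axis, replicates of each strain). Boxes give the quartiles, lines the medians and whiskers the range: the control libraries have medians of 37.3%, 23% and 33.7%, and those of KIN17(M107I) lie between 59.7% and 62.1%.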

How the data were processed

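Reads were trimmed with cutadapt and aligned to ce10 with STAR, and Bowtie2 and SAMtools are named in the submitters' notes. For 5' and 3' events the authors took introns supported by 5 or more reads when all samples were added up, with alternative ends at most 50 nt apart, and annotated events from archived Ensembl gene predictions. The deposited score of each form is its share in the event on a scale of 1000, 1 library per file. Tables hold no reads, so precision per value is unknown. PSI was the included score over the sum of both, with 1 and 999 read as 0 and 100%. PSI entered limma 3.58.1, run in R 4.3.3, as the log2 ratio of the included to the other form with 0.01 added to each share. The model had 1 coefficient per strain over 15 libraries, with trend and robust settings and Benjamini-Hochberg adjustment within the 5', 3' and annotated tables. An event was called at adjusted p under 0.05 and a mean difference over 20 points. Values missing in other strains were left out of the fit.

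Sites are given as the first or last base of the intron. Names came from positions in the study's event list, through RefSeq locus tags, for 258 events, and from lying between listed positions of 1 gene for 311. Only 12 of 303 genes of the prepared gene lists had a named event, so the lists were void. The text names the largest events that passed both tests, 1 per gene and site, the study's followed events, and up to 3 of each kind that passed one test only. lmd-1, also followed by the study, was not analysed here, since no event carried its name. Members and lists were chosen with earlier results of these data known. Alternatives covered the libraries fitted, offset, filter, thresholds, adjustment, single libraries left out, overlapping pairs counted once and scores as deposited. Replicates are separate RNA isolations of 1 strain. Tissue markers could not be checked, because the tables hold no level per gene.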

Additional observations from a re-analysis of the deposited data

Results flagged for a closer look

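A direct comparison with KIN17(K23N) singled out 3 of the 5' events. The unc-73 event was 85.8 points higher in KIN17(M107I), given with no test because it was picked by this difference, and the strains carry different unc-73 alleles. That of KIN17(K23N) eliminates use of the downstream site, so this difference was set by the strains. A5.011879 differed by -32.9 points (limma adjusted p = 0.000929), with all 3 KIN17(M107I) libraries at 0. A5.014850 was 23.2 points higher in KIN17(M107I) (limma adjusted p = 0.0471), where replicate 1 was at 43.8% and the others at 15.8% and 10%.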

How the results depend on the processing

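With no limit on the mean difference limma called 101 5' events, 17 3' events and 78 annotated events, and with p adjusted over all classes 21 3' and 7 annotated events. With only the 6 libraries 1 annotated event was left. The pairwise criterion passed 51, 38 and 6 events of these classes with a smallest difference of 20 points and 113 3' events with 10 points. Leaving out 1 library gave 18 to 28 5' calls, 7 to 12 3' calls and 2 to 19 annotated calls, and 170 to 187, 148 to 175 and 25 to 40 events by the criterion, which then has fewer pairs of libraries to satisfy. Of the 5' pairs 1 or 2 nt apart, 12 rose and 8 fell with only the 6 libraries, and 21 rose with an offset of 0.05 and 22 to 33 without 1 library. Against KIN17(K23N) limma called 10 5' and 11 3' events with only the 6 libraries, 8 and 1 with no limit on size, 1 5' event among those varying and scored in all 15 libraries, and 2 to 7 and 0 to 6 without 1 library. The other counts stayed within 1.5 times. No named event changed direction, but this is no test. The offset, the adjustment and the fit of the 6 libraries leave the mean difference as it is, and most named events were chosen for large differences. Of the 55 named events 35 were called, of which 26 lost the call with only the 6 libraries. The cause of these changes was not tested.

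The depth behind each PSI is unknown, so small differences at rarely read introns cannot be weighed. Strain, numbered set and the unc-73 allele cannot be told apart from the change in KIN17. No paired analysis was possible because the labels give no replicate number that joins libraries of different strains, and the numbers used here only follow the order of the samples.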

Other observations

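Of 505 alternative first exons tested, 15 had an adjusted p under 0.05 by limma at any size, 13 of them higher and 2 lower in KIN17(M107I), and all 4 called ones were higher. Of all those with a difference, 52.5% were higher, and with only the 6 libraries 0 of the 4 calls were kept (limma adjusted p from 0.318 to 0.464). The largest was AF.0000113, on chromosome II from 12049517 to 12054770, at 33.1%, 28.4% and 17% in the control and 52.7%, 55.3% and 44% in KIN17(M107I) (limma adjusted p = 0.0227). Its libraries did not overlap, and the share of all annotated events without overlap is not given here. Of 815 retained introns 7 were higher and 7 lower, and 1 was called: RI.0000183, on chromosome III from 4581248 to 4581650, at 54.9%, 60.7% and 54.4% and then at 74.7%, 77.1% and 81.4% (limma adjusted p = 0.0288). RI.0000183 lost the call in all 6 fits that left out 1 library, and its limma adjusted p was 0.337 with only the 6 libraries.

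A pair of places held a 5' and a 3' change at once. On chromosome V, A5.018133 went from 33.3%, 0% and 0% to 100% in all KIN17(M107I) libraries, and the overlapping A3.014834 went from 14.3%, 28.6% and 28.6% to 0 in all of them (limma adjusted p = 1.77e-05, 14 libraries with a score). On chromosome IV, A3.011484 went from 0 in all control libraries to 13.6%, 35.3% and 15.6% (limma adjusted p = 0.00214), and the overlapping 5' pair A5.014064, with sites 1 nt apart, fell by 13 points (limma adjusted p = 0.0130).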
